A study of Mus musculus with 2 samples.

Results

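The 363 close pairs described here are places where the homeodomain transcription factor Nkx6.1 gave a pair of separate binding peaks within 1 kb, with no further peak nearby. They were found by position alone in the list of Nkx6.1 peaks from mouse pancreatic islets. On every chromosome except the mitochondrial genome, peaks were sorted by their centre and neighbours at most 10 kb apart were linked. Linked groups of exactly 2 peaks were kept where the centres lay at most 1 kb apart. The 363 pairs hold 726 of the 15239 listed peaks, or 4.76% of the 15237 nuclear ones (95% exact binomial interval 4.43 to 5.12). Members enter 2 at a time by the rule, so this interval is too narrow. The pairs were chosen by the measured centres of the called peaks. The same peak calls gave the values below, so these are a description and no test was made on them.

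The study is of mouse pancreatic islets of C57Bl/6 background, labelled normal, with no allele or treatment named in the labels. There was 1 library made with an antibody against Nkx6.1 and 1 input library made with no antibody. Each label names its group by the antibody entry. Islets hold several endocrine cell types, and a peak in such a sample cannot be assigned to one of them. With 1 library per group, no value has a replicate check, and no interval covers variation between islets. The ChIP library held 202780986 tags, the mapped ends of its sequenced fragments.

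Nkx6.1 is made in insulin-producing beta cells, where it helps to hold beta cell identity and the secretion of insulin in response to glucose. Homeodomain proteins recognise short AT-rich stretches of DNA, often with a TAAT core, and enhancers commonly carry several binding sites for the same or for different factors. In ChIP-seq, DNA fragments held by the factor pile up over a bound site, so a peak caller reports the place of highest pile-up, and sites closer together than the fragments are long are hard to separate. Each peak in the list was given as a short interval of fixed length centred on the highest pile-up, in mm9 coordinates, and per the file headers peaks had to lie at least 266 bp apart. The list names no genes, and neither gene models nor sequence of mm9 were used, so pairs are given by position.

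The first question was how far apart the 2 peaks of a close pair lay. Spacing ran from 252 to 996 bp, with a median of 499 bp and an interquartile range of 389 to 659 bp. The most frequent distances were those from 350 to 400 bp and from 400 to 450 bp, with 49 pairs each. Distances over 300 and up to 550 bp covered 208 pairs, or 57.3%. Below this range, 17 pairs lay at 300 bp or less, and 3 of these lay under the 266 bp that the caller sets as a minimum. None lay at 250 bp or less. From 550 bp upward there were between 7 and 26 pairs per 50 bp, with 19 and 12 in the last 2 steps before 1 kb. The caller's minimum limits the lower end of this distribution, although 3 pairs lie under it, and the rule sets the upper end. Per the file headers, peaks were centred at the highest pile-up. The 363 pairs within 1 kb were followed by 213 groups of 2 at 1 to 2 kb and 167 at 2 to 3 kb. From 6 to 10 kb there were 104 to 120 per kb.

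**Figure D1:**
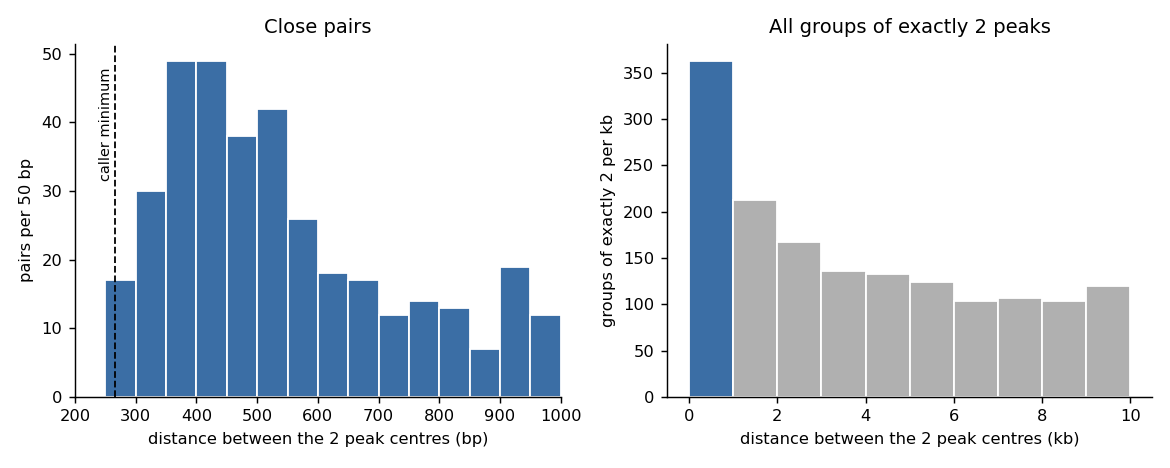
Left, number of close pairs per 50 bp of distance between the 2 peak centres (bp), with the caller's minimum of 266 bp as a dashed line. Right, number of groups of exactly 2 peaks per kb of distance (kb), with the 363 close pairs in blue. Close pairs are most frequent between 350 and 450 bp, and groups of 2 become fewer from the first kb to the range of 6 to 10 kb.

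The closest pair lay on chromosome 11, with peaks at chr11:29514338-29514470 and chr11:29514590-29514722, 252 bp apart. Its peaks held 394 ChIP tags (95% Poisson interval 356 to 435) and 410 ChIP tags (371 to 452). The next 3 were a pair at 260 bp on chromosome 19 (chr19:60866959-60867091 and chr19:60867219-60867351), one at 261 bp on chromosome 8 (chr8:80294943-80295075 and chr8:80295204-80295336) and one at 270 bp on chromosome 5 (chr5:137748642-137748774 and chr5:137748912-137749044). Their tag numbers were 129 and 150 on chromosome 19. They were 140 and 123 on chromosome 8. On chromosome 5 both peaks held 157 tags. In none of these 4 pairs did the tag numbers of the 2 peaks differ beyond counting error.

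At the other end, the widest pairs inside the limit lay at 996 bp on chromosome 12 (chr12:32634385-32634517 and chr12:32635381-32635513, with 172 and 215 tags) and at 996 bp on chromosome 2 (chr2:91019937-91020069 and chr2:91020933-91021065, with 202 and 142 tags). They were followed by pairs at 984 bp on chromosome 3 with 110 and 134 tags, and at 983 bp on chromosome 11 with 118 and 125 tags. The groups of 2 just outside the limit lay at 1001 bp on chromosome 5 with 194 and 136 tags, at 1003 bp on chromosome 17 with 199 and 177, at 1008 bp on chromosome 8 with 253 and 128, and at 1008 bp on chromosome 1 with 137 and 224. Pairs on both sides of the limit thus held overlapping tag numbers.

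The second question was how well the tag numbers of the 2 peaks agreed. ChIP tags are given here from the column that the authors used for the comparison with input, brought back to whole tags. Close-pair peaks held a median of 174 tags (interquartile range 140 to 245), against 172 (134 to 242) over all nuclear peaks. Within a pair the peak with more tags had a median of 223 (167 to 301) and the other a median of 146 (123.5 to 180.5). The higher number divided by the lower had a median of 1.35 (1.15 to 1.85). It stayed under 1.5 in 221 pairs (60.9%), and reached 2 in 73 (20.1%) and 3 in 19 (5.23%). The list starts at 109 tags, and in 127 pairs the weaker peak lay within 1.2 times of that floor. A partner too weak for the list cannot appear, so large ratios are undercounted. Peaks with more input tags need more ChIP tags to reach the required 4-fold, so their floor is higher. The 127 take no account of this.

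An exact conditional interval of the tag ratio left out 1 in 219 pairs (60.3%). In these the 2 peaks differed by more than the counting error of the ChIP library, with each tag taken as independent. Per the file headers, up to 10 tags per bp were considered, so tags at the same position can repeat. Repeats would make such intervals too narrow and the 219 too many, which was not tested. In the remaining 144 pairs a difference was not detectable at this depth. The rank correlation of the tag numbers, with each pair entered both ways round, was 0.17 over the 363 pairs. It is a weak value from peaks of 1 library that share their input and their region. Among the 1208 groups of 2 whose centres lay more than 1 kb and up to 10 kb apart, the rank correlation was 0.05 and the median ratio was 1.44 (1.19 to 1.97). Of these wider pairs, 54.4% had a ratio under 1.5, 23.8% reached 2, and 68.3% differed by more than counting error. The differences between close and wider pairs were not tested.

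**Figure D2:**
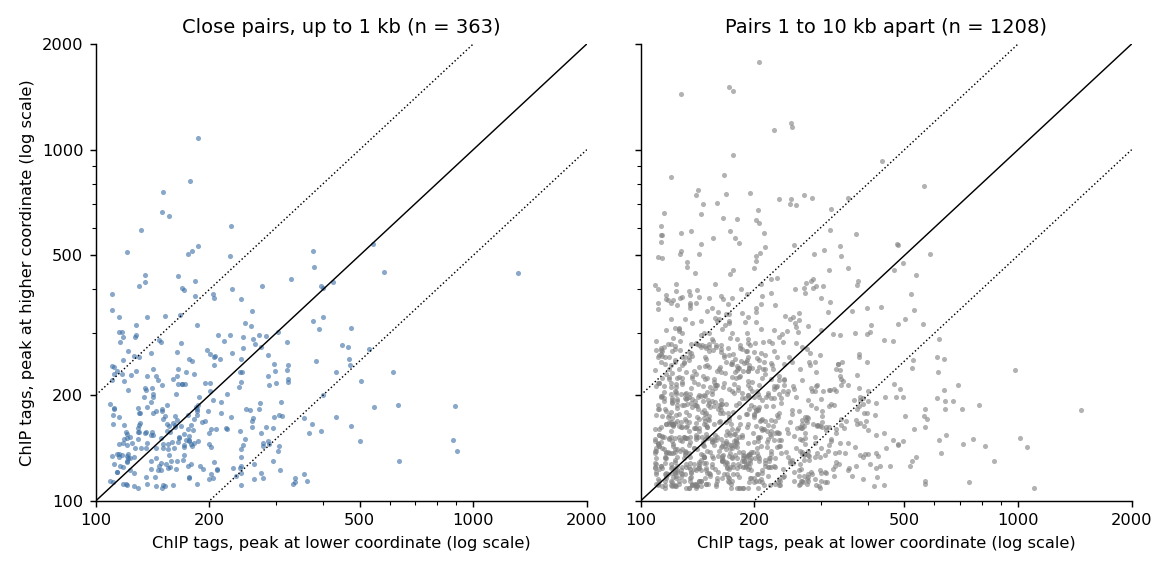
ChIP tags of the peak at the lower coordinate (horizontal, log scale) against those of its partner at the higher coordinate (vertical, log scale) for 363 close pairs (left) and 1208 pairs 1 to 10 kb apart (right), 1 point per pair. The solid line marks equal tags and the dotted lines a ratio of 2. Points of both kinds spread widely around equality, and 20.1% of close pairs and 23.8% of wider pairs lie on or outside the dotted lines.

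The ratio was lowest in the closest pairs. Its median was 1.14 in the 17 pairs at 300 bp or less, a class too small to lean on, and 1.30 in the 79 pairs over 300 and up to 400 bp. It was 1.42 in the 87 pairs up to 500 bp, 1.37 in the 115 up to 750 bp and 1.39 in the 65 up to 1 kb. Beyond 1 kb it was 1.5 in the 213 pairs up to 2 kb, 1.43 in the 436 up to 5 kb and 1.44 in the 559 up to 10 kb. Without the 17 closest pairs the classes inside 1 kb thus ran from 1.30 to 1.42, with quartiles that overlapped throughout. The rank correlation had no steady course with spacing, at 0.07, 0.09, 0.24 and 0.19 in the classes from 300 bp to 1 kb. No header or label states the width of the window in which these tags were counted, so it is not known whether the closest peaks share tags.

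The normalized tag column, which counts fewer tags per peak, was brought back to tags and divided by the tags of the input comparison. What makes this count smaller is not stated in any header or label. This share had a median of 51.3% in close-pair peaks (interquartile range 47.4 to 55.3) and 51.1% over all nuclear peaks (47.2 to 55.2). It was 50.1% in pairs at 300 bp or less and between 51.0% and 51.6% in the 4 classes from 300 bp to 1 kb. In this measure the peaks of close pairs lay where the whole list lay.

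The 8 pairs with the most ChIP tags show both equal and unequal partners. The strongest lay on chromosome 4, with peaks 901 bp apart at chr4:51488212-51488344 and chr4:51489113-51489245. These held 1318 tags (1248 to 1391) and 445 tags (405 to 488), and stood 48.5-fold and 16.4-fold over an input at its lowest value. The ratio was 2.96 (exact interval 2.66 to 3.31), and both focus ratios were high at 0.934 and 0.869. It was the only pair in which a peak of 20-fold or more had a partner of 8-fold or more.

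The pair on chromosome 6 lay 445 bp apart, at chr6:16266693-16266825 with 186 tags (160 to 215) and chr6:16267138-16267270 with 1080 tags (1017 to 1146). Its second peak was 5.81 times stronger (4.97 to 6.82). The pair on chromosome 9, 841 bp apart at chr9:84654754-84654886 and chr9:84655595-84655727, held 893 tags (835 to 954) and 186 tags (160 to 215). Its focus ratios of 0.687 and 0.615 gave one of the 4 lowest means of all close pairs. The pair on chromosome 17 had the largest ratio of all, at 6.50 (5.44 to 7.83). Its peaks lay 491 bp apart, at chr17:21816307-21816439 with 904 tags (846 to 965) and at chr17:21816798-21816930 with 139 tags (117 to 164).

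Chromosome 5 held 2 of the 8, separated by 92.8 kb with 3 other listed peaks between them. In the first, at chr5:101926277-101926409 and chr5:101926659-101926791, the peaks lay 382 bp apart and held 884 tags (827 to 944) and 149 tags (126 to 175). In the second, at chr5:102019607-102019739 and chr5:102020033-102020165, they lay 426 bp apart and held 543 tags (498 to 591) and 538 tags (493 to 585). These last 2 numbers did not differ beyond counting error (ratio 1.01, 0.894 to 1.14). Input stood at its lowest value at both, so the deposited folds of 19.98 and 19.8 follow from the tags and are lower limits. Their focus ratios were less alike, at 0.739 and 0.897.

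Chromosome 1 held the last 2. The peaks at chr1:24685081-24685213 and chr1:24686037-24686169, 956 bp apart, held 579 tags (533 to 628) and 447 tags (407 to 490), with input above its lowest value at both, 33 and 30 tags. The peaks at chr1:110787896-110788028 and chr1:110788266-110788398, 370 bp apart, held 178 tags (153 to 206) and 812 tags (757 to 870). Of the 8 pairs, 7 differed beyond counting error and 6 had a ratio of 2 or more. As these pairs were picked for their summed tags, such ratios do not stand for close pairs at large.

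**Figure D3:**
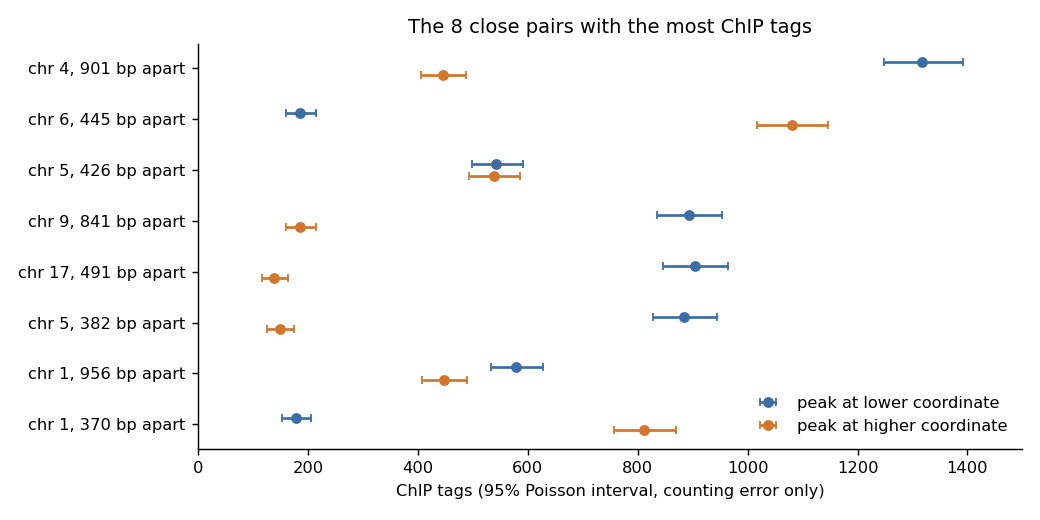
ChIP tags (horizontal axis, from 0) of the 2 peaks in each of the 8 close pairs with the highest summed tags, named by chromosome and distance in bp. Points are tag numbers of single peaks and bars their 95% Poisson intervals. The intervals of the 2 peaks overlap only in the pair on chromosome 5 at 426 bp.

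After the pairs on chromosomes 17, 5 (382 bp) and 6, the next largest ratio was 5.03 (4.22 to 6.03), in a pair on chromosome 17 at chr17:85356318-85356450 and chr17:85357043-85357175 with 151 and 759 tags. At the other extreme, 4 pairs had the same whole number of tags at both peaks. These lay on chromosome 4 with 187 tags (384 bp apart), chromosome 10 with 175 (457 bp), chromosome 7 with 162 (313 bp) and chromosome 5 with 157 (270 bp). Equal numbers did not go with equal focus ratios in every case, since the peaks on chromosome 10 stood at 0.838 and 0.673.

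The enrichment over input of close-pair peaks lay at that of the list. Their median fold over input was 5.67 (interquartile range 4.63 to 7.84), against 5.63 over all nuclear peaks. Of the 726 peaks, 469 (64.6%) reached 5-fold, where the share of all nuclear peaks was 64.5%. At 8-fold or more there were 174 (24.0%), beside 24.1% of all nuclear peaks. Both shares are near the background and are no result about the pairs. At 20-fold or more there were 10 peaks, or 1.38% (0.662 to 2.52), beside 2.32% of all nuclear peaks. Both peaks of a pair reached 8-fold in 28 pairs (7.71%), 1 of them in 118 (32.5%) and neither in 217 (59.8%). In wider pairs these shares were 6.71%, 36.2% and 57.1%. The 10 peaks at 20-fold or more sat in 10 different pairs. Of their partners, 9 were under 8-fold, and the folds of all 10 partners ran from 4.76 to 16.4.

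The fold over the surrounding 10000 bp was lower in close pairs, with a median of 8.44 against 9.94 over all nuclear peaks and 10.4 in peaks with no other within 10 kb. This measure counts the partner among the surroundings, so the difference is partly built in. Groups of 3 or more had a median of 8.04. Among wider pairs it was 7.64 at 1 to 2 kb, 8.10 at 2 to 5 kb and 9.90 at 5 to 10 kb, so the groups of 2 next to the limit had a lower local fold than close pairs. In close pairs the stronger peak had a median of 11.2 and the weaker one of 6.95, where the list requires 4. The weaker peak of the pair at 382 bp on chromosome 5 had a local fold of 4.03, the lowest among close-pair peaks.

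The third question concerned the focus ratio, the deposited fraction of tags that lie on the strand and side where a point source at the peak centre would put them. Values near 1 describe a peak with a sharp centre. Close-pair peaks had a median focus ratio of 0.765 (interquartile range 0.714 to 0.824), against 0.775 (0.717 to 0.832) over all nuclear peaks. The median was 0.772 in wider pairs, 0.765 in groups of 3 or more and 0.777 in solitary peaks. These medians differ by far less than the spread between peaks of any of these sets. Since the focus ratio rises with tags, peaks were also compared in 3 equal parts of the list by tag number. In the part with fewest tags (109 to 144) the median was 0.749 in close pairs and 0.761 over all nuclear peaks. In the middle part (145 to 211) it was 0.756 and 0.765, and in the part with most tags it was 0.797 and 0.799.

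**Figure D4:**
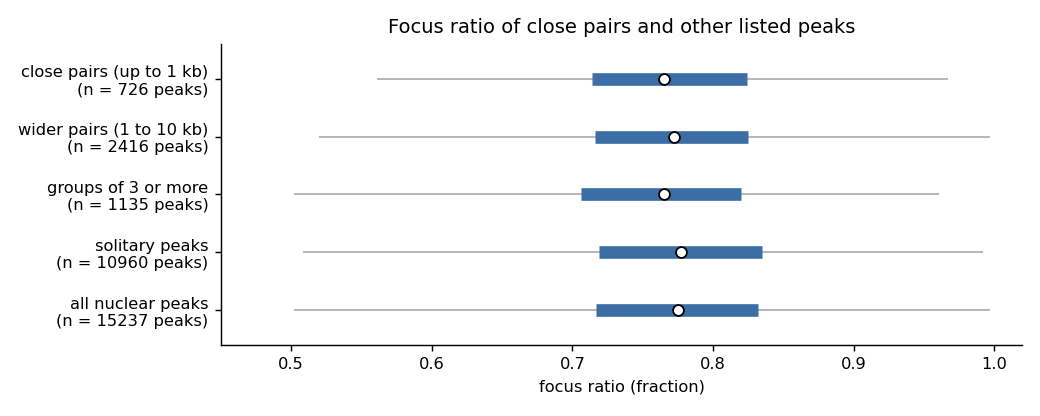
Focus ratio (fraction, horizontal axis) of the peaks in close pairs, in the other sets they are compared with, and in the list as a whole. Circles are medians, thick bars interquartile ranges and thin lines the full range over peaks. The medians lie between 0.765 and 0.777, and the interquartile ranges overlap almost entirely.

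Within a pair the focus ratios differed by a median of 0.071 (0.035 to 0.118), against 0.080 (0.038 to 0.129) in wider pairs. The difference was over 0.2 in 11 close pairs (3.03%) and in 81 wider pairs (6.71%). The rank correlation between the focus ratios of the 2 peaks was 0.11 over 363 close pairs and 0.004 over 1208 wider ones, both weak. Apart from 4 ties in tags, the peak with more tags had the higher focus ratio in 216 of 359 pairs (60.2%), and in 698 of 1203 wider pairs (58.0%). The medians were 0.778 for the stronger and 0.756 for the weaker peak of close pairs.

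By spacing, the mean focus ratio of a pair had a median of 0.793 in the 17 pairs at 300 bp or less and 0.778, 0.771, 0.754 and 0.770 in the classes from 300 bp to 1 kb. The closest pairs were therefore not those with the lowest focus ratio. The pair with the highest mean, 0.918, lay on chromosome 2 at chr2:92023509-92023641 and chr2:92023949-92024081, with 160 and 111 tags, so a sharp centre was not limited to strong peaks. The strongest pair, on chromosome 4, came next with a mean of 0.902, followed by pairs on chromosome 13 (0.894, with 382 and 250 tags) and on chromosome 10 (0.892, with 112 and 230 tags). The lowest mean, 0.592, was found on chromosome 11 at chr11:104092121-104092253 and chr11:104092522-104092654, with 204 and 116 tags. It was followed by pairs on chromosome 11 (0.635), chromosome 16 (0.647) and chromosome 9 (0.651, the pair with 893 and 186 tags).

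The fourth question was the level of the input library at these peaks. The deposited input stands at a lowest value of 21.4 tags wherever fewer were counted, so only the share of peaks above that value can be compared. In close pairs 287 of 726 peaks were above it, or 39.5% (36.0 to 43.2), where the share over all nuclear peaks was 32.9%. It was 35.5% (33.6 to 37.4) in wider pairs, 38.1% (35.3 to 41.0) in groups of 3 or more and 31.3% (30.5 to 32.2) in solitary peaks. By distance, the share in wider pairs was 41.1% at 1000 to 2000 bp, 36.6% up to 5000 bp and 32.5% up to 10000 bp. In close pairs it was 29.4% at 300 bp or less, 36.1% up to 400 bp and between 40.0% and 42.0% in the classes beyond. A raised share was therefore not particular to close pairs. Partners share their region, so the interval for pairs is too narrow. Where input was above its lowest value, its median was 27 tags both in close-pair peaks and over all nuclear peaks, and the highest in a close pair was 76.

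Peaks with higher input need more ChIP tags to reach 4-fold, which ties the input share to peak strength. In the 3 parts of the list by tag number the share was 19.3%, 42.9% and 53.0% in close pairs, against 14.3%, 37.6% and 46.9% over all nuclear peaks. The share in close pairs was the higher one in each part. So was that of wider pairs, at 14.9%, 42.3% and 47.9%, and that of groups of 3 or more, at 18.1%, 39.0% and 51.7%. The binomial interval in close pairs held the value of the list in each part, but only near its lower end, at 14.3%, 36.8% and 46.6%. These intervals take partners as independent and are too narrow, and the list includes the close pairs. It does not follow that the shares are equal.

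Input levels were then compared between the 2 peaks of a pair. Both peaks were above the lowest value in 74 close pairs (20.4%), 1 of them in 139 (38.3%) and neither in 150 (41.3%). In the 1208 wider pairs these shares were 13.1%, 44.8% and 42.1%. Given a close-pair peak above the lowest value, its partner was above it in 51.6% of cases (148 of 287). Given a peak at the lowest value, its partner was above it in 31.7% (139 of 439). In wider pairs the same shares were 36.9% and 34.7%, nearly equal. Up to 500 bp the shares in the 3 spacing classes were 60.0% (of only 10 peaks), 52.6% and 60.3% for partners of peaks above the lowest value. For partners of peaks at it they were 16.7%, 26.7% and 28.7%. From 500 to 750 bp the shares were 42.1% and 40.7%, and from 750 bp to 1 kb the shares were 53.8% and 30.8%. The likeness therefore did not change steadily with spacing, and no test was made. Whether the windows for input overlap in the closest pairs is not known.

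**Figure D5:**
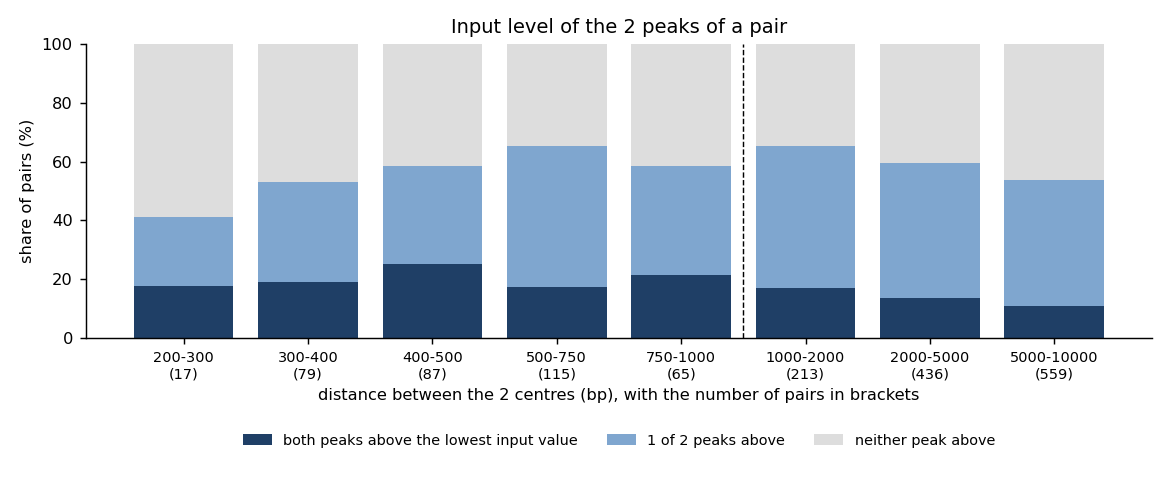
Share of pairs (%, vertical axis from 0) in which both, 1 or neither peak had input above the lowest deposited value, by distance between the centres (bp, with the number of pairs in brackets). Close pairs lie left of the dashed line. Pairs with both peaks above make up 17.4% to 25.3% of the 5 classes of close pairs and 11.1% to 16.9% of the 3 wider classes.

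Where exactly 1 peak of a close pair was above the lowest input and tags were not tied, it was the stronger peak in 95 of 137 pairs, and in wider pairs in 373 of 540. Among the 359 close pairs without a tie, input was above its lowest value at 46.8% of the stronger and 32.0% of the weaker peaks, against 44.1% and 27.0% in wider pairs. The 4-fold rule contributes to this by construction in both sets. The highest summed input lay on chromosome 6 at chr6:70794110-70794242 and chr6:70794434-70794566, with 33 and 76 input tags under 328 and 427 ChIP tags. There the peak with more ChIP tags had the lower fold over input, 4.43 against 7.84. On chromosome 7, at chr7:48888427-48888559 and chr7:48888794-48888926, input was alike at 51 and 53 tags, as were ChIP tags at 264 and 280 and the folds at 4.08 and 4.16. The next were 2 pairs on chromosome 8 with 56 and 45 input tags (403 bp apart) and with 54 and 39 (554 bp apart).

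Close pairs were found on all 19 autosomes and on X. Among autosomes, the share of a chromosome's peaks in close pairs was lowest on chromosome 15, at 2.75% (1.64 to 4.31). It was highest on chromosome 17, at 6.58% (4.74 to 8.85). Members enter 2 at a time, so the intervals of these shares are too narrow. Chromosome 1 held the most pairs, 31, with 5.75% of its peaks. Chromosome X held 4 pairs with 8 of its 192 peaks, or 4.17% (1.82 to 8.04), within the autosomal range. These 8 peaks held 120 to 243 tags, and 1 of them had input above the lowest value. By the rule no other peak lay within 10 kb of a pair, and the nearest stood at a median of 40.9 kb (interquartile range 22.8 to 97.6). The next close pair lay at a median of 1.5 Mb, with another close pair within 100 kb for 18 of the 363.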

How the data were processed

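One deposited peak list was used, made from 1 Nkx6.1 ChIP library and 1 input library. Per the file headers, the authors called peaks with HOMER findPeaks (factor style, false discovery rate 0.001, ChIP fragment length 80 bp, input fragment length 70 bp), requiring 4-fold and a Poisson p-value of at most 0.0001 over input and over the local 10000 bp. Bowtie and the build mm9 are named in the submitters' processing notes, and their versions and settings are not given in the sources at hand. The deposited normalized tag signal is per 10000000 tags. The deposited ChIP tag signal steps by 0.788 and gave whole tags, within 0.1 tag, for 100% of nuclear peaks. The deposited input signal has a lowest value of 21.4. Fold ratios, the focus ratio (a fraction) and the score were taken as deposited. The authors' p-value over input was not used to select peaks, and was written as 0 for 24 members (3.31%) and 561 nuclear peaks (3.68%).

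The members, lists and named pairs were chosen with earlier results of these data known. Pairs named are those highest in summed tags or summed input, and those highest or lowest in spacing, tag ratio or mean focus ratio. Those just outside 1 kb were named as well. Named outside that rule, after their values were seen, were peaks at 20-fold or more and the lowest local fold. Both mitochondrial peaks were left out. Tag numbers carry exact Poisson intervals and tag ratios exact conditional ones, both for counting error only and with each tag taken as independent. Shares carry exact Clopper-Pearson intervals, which treat the peaks or pairs counted as independent. All are at 95%. Pair finding and intervals were tested on simulated data. The analysis ran in Python 3.11.15 (scipy 1.17.1, numpy 2.4.6, pandas 2.3.3, matplotlib 3.10.9). Other distances, the peaks above the median score and subsets of pairs were tried as alternatives.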

Additional observations from a re-analysis of the deposited data

How the results depend on the processing

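The number of peaks in close pairs depended on the limits. The 726 peaks became 366 with a limit of 500 bp, 1152 with 2 kb, and 266 when only the 7535 peaks scoring above 175 were linked anew. The number stayed within 1.5 times with neighbours linked at 5 kb (864) or 25 kb (518), and was 1048 with neighbours up to 1 kb apart in groups of any size. Among the peaks above that score the median spacing was 468 bp, the median focus ratio 0.784, the share of peaks with input above its lowest value 52.6% and the median fold over input 7.84. Over all 7535 peaks above it the last 3 values were 0.789, 45.2% and 7.91, each also higher than in the whole list. The median tag ratio was 1.40 in the normalized column, and the median fold was 5.46 with 1 tag added to each side. The other alternatives run left the median spacing, tag ratio, focus ratio, input share and fold within their 95% intervals over pairs or peaks. Most of them were parts of the same close pairs or held all of these, so this outcome was partly built in. These included pairs at least 500 bp apart for the tag ratio (1.38), focus ratio (0.759) and input share (40.9%). Settings without chromosome X, with both inputs at the lowest value, and the share of pairs beyond counting error at 500 bp or more (62.4%) were chosen after seeing the data. The planned search for sequence motifs was not run, as no mm9 sequence was used here. Depth limits the comparison within pairs, and the minimum of 109 tags and the lowest input value limit ratios and folds.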
